A study of Capra hircus with 4 samples.

Results

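Solute carrier (SLC) genes were analysed in 4 RNA-seq libraries of longissimus dorsi muscle, the long muscle of the back, from Cashmere goats. A gene counted as a member when the goat gene name that the authors paired with an assembled sequence begins with an SLC symbol. This gave 182 of 11208 goat gene names, of which 33 were SLC25 mitochondrial carriers and 145 were transporters of other families. The remaining 4 names only extend an SLC symbol and belong to proteins that are not transporters, such as SLC9A3R2, a scaffold protein that binds ion transporters, and SLC7A6OS, which lies opposite SLC7A6. In all, 43 SLC families were found, and 335 unigenes, the assembled sequences on which reads were counted, carried these names.

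One library was the control, from goats not given the drug, and 3 were from goats given ractopamine, a beta-agonist feed additive, by mouth at 1 mg/kg of body weight. All goats were of the age of 2 months by the labels and, per the study's methods, male. Dosing ran for 28 days and was followed by 21 days of withdrawal. The labels number the treated libraries 1, 2 and 3 and call them replicates, but give no day for any of them, and they are named T1, T2 and T3 here. The study sampled muscle on several days of dosing and withdrawal and sequenced several of these days, so the treated libraries may come from different days, and how many animals are in a library is not stated. Fat and connective tissue were washed off the muscle before freezing, per the methods.

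SLC proteins sit in membranes and move solutes across them, either along a gradient or coupled to an ion that moves with or against the solute. In skeletal muscle they bring in glucose, amino acids, creatine and carnitine, export lactate, exchange ions with the fluid around the fibre and, in the case of SLC25 proteins, carry nucleotides, phosphate and fuel intermediates through the inner mitochondrial membrane. SLC25A4, the muscle form of the ADP/ATP carrier, is among the most abundant proteins of that membrane.

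Values are shares of the counts of unigenes with a goat gene name, because the unigenes without one were mitochondrially encoded and differed widely between the libraries. Such named counts were 6086312 in the control, 3991046 in T1, 133809 in T2 and 2697657 in T3. Of the 182 SLC genes, 177, 149, 97 and 151 had at least 1 count in the control and T1, T2 and T3. A floor of 3 counts equals 0.493, 0.752, 22.4 and 1.11 counts per 1000000 (CPM) in these libraries, so that most low SLC genes were not measurable in T2. A member was compared with the control when its counts in the 2 libraries together would give at least 5 in the smaller one at equal shares, and it was called higher or lower when the ratio of shares was at least 2 or at most 0.5 and its 95% exact (Clopper-Pearson) interval left out 1. These intervals cover counting error only and compare libraries, not conditions. Values given as 4 numbers are in the order control, T1, T2 and T3, and ratios given as 3 are those of T1, T2 and T3. Of the members, 54 were compared in none of the treated libraries, and 62 had fewer than 10 counts in the control.

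Of the 7 skeletal muscle markers looked for, 4 were present, and together they held 71262, 78121, 92311 and 130803 CPM in the control and T1, T2 and T3. The muscle label was met by creatine kinase (CKM), troponin T3 (TNNT3) and myoglobin (MB), whereas the skeletal actin ACTA1 had 130 counts in the control and 0 to 6 in T1 to T3. Markers of other cells moved between the libraries as well. The 4 adipocyte markers found, of 5, summed to 51.4, 280, 1121 and 63.4 CPM, the 3 fibroblast markers found, of 4, to 62.1, 60.6, 1928 and 96.4 CPM, and the 4 endothelial markers to 297, 177, 740 and 385 CPM. Of the macrophage list, 2 of 4 were present, at 0 to 4.51 CPM, and of the B and plasma cell list 0 of 4. The red blood cell list had 2 of 5, and nearly all of its counts were those of SLC4A1, itself an SLC gene, whose unigenes matched it at 60 to 62% identity and had SLC4A2 as nucleotide match. Its list summed to 4.44, 6.01, 14.9 and 7.04 CPM. The part these cells play in the SLC values was not tested, and fewer cells of a type cannot be told apart from less RNA per cell.

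SLC genes took 0.732% of the named counts in the control (95% Wilson interval 0.725 to 0.739%), which was the highest share of the 4 libraries. The share was 0.438% in T1 (0.432 to 0.444%), 0.474% in T2 (0.438 to 0.512%) and 0.476% in T3 (0.467 to 0.484%). The ratios to the control were 0.598, 0.647 and 0.650. Most goat genes shared this direction, and the median ratio of all goat genes compared was 0.741, 0.562 and 0.709, or -0.43, -0.83 and -0.50 on the log2 scale. Relative to that median the SLC sum was 0.807, 1.15 and 0.917 times the control level, so its direction in T2 turned with the scaling. As a share of all goat-paired counts, with the mitochondrially encoded unigenes included, SLC genes held 0.558, 0.251, 0.0100 and 0.213%.

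**Figure D1:**
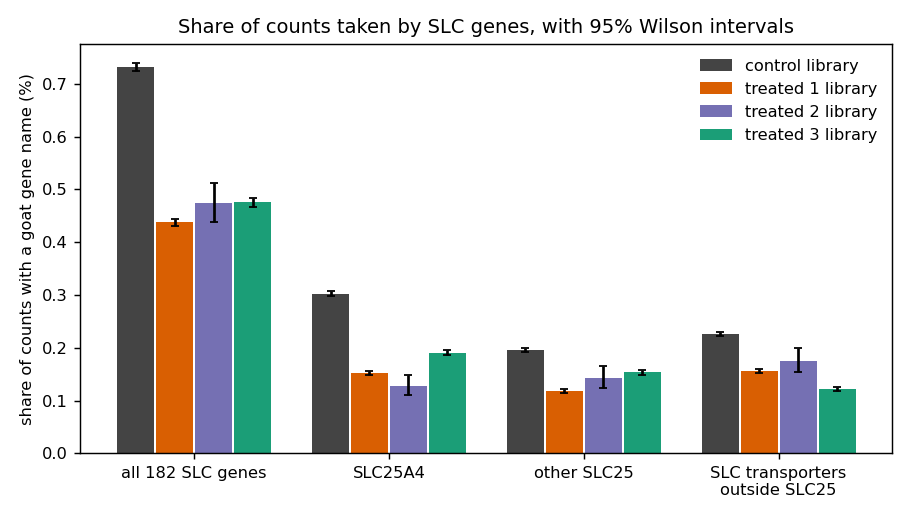
Share of the counts with a goat gene name taken by all SLC genes, by SLC25A4, by the other SLC25 genes and by SLC transporters outside SLC25, in percent, with 1 bar per library and 95% Wilson intervals, which cover counting error only. The control library is highest in each of the 4 groups, and SLC25A4 alone takes 0.303% of its counts.

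The SLC25 family, with 33 of the 182 genes, held 68.1% of the SLC counts in the control and 61.9, 57.3 and 72.5% in T1, T2 and T3. SLC25A4 alone held 41.4, 34.8, 27 and 40.1%. The SLC25 share of the named counts was 0.498, 0.271, 0.271 and 0.345%, with ratios to the control of 0.544 (0.532 to 0.556), 0.544 (0.489 to 0.604) and 0.692 (0.676 to 0.708). The SLC transporters outside SLC25 had ratios of 0.687 (0.667 to 0.708), 0.774 (0.678 to 0.881) and 0.540 (0.520 to 0.561). Relative to the control, the summed mitochondrial carriers were thus the lower group in T1 and T2. The other transporters were the lower group in T3. Without SLC25A4, the SLC25 ratios were 0.604 (0.584 to 0.625), 0.733 (0.632 to 0.845) and 0.787 (0.759 to 0.815). The order then held in T1 and T3, while in T2 the intervals of both groups overlapped. Relative to the median of all goat genes, SLC25 stood at 0.733, 0.969 and 0.976 and the others at 0.927, 1.38 and 0.762. Without SLC25A4, the SLC25 sum stood at 0.815, 1.30 and 1.11, above that median in T2 and T3.

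In T1, 128 SLC genes were compared, and 12 were called higher and 42 lower, with a median ratio of 0.659. Among all goat genes compared, 10.4% were called higher and 28.3% lower in this library, against 9.38 and 32.8% of the SLC genes. In T3, 2 of 109 were called higher and 38 lower, with a median ratio of 0.570, while 5.61% of all goat genes were called higher and 26.1% lower. The SLC shares there were 1.83 and 34.9%. Only 32 SLC genes could be compared in T2, of which 3 were called higher and 9 lower, with a background of 9.67 and 35.2%. When the median ratio of all goat genes was set to 1, the split was 19 higher and 28 lower in T1, 3 and 2 in T2, and 9 and 12 in T3. Nothing particular to SLC genes is read from the called members, with or without this scaling.

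**Figure D2:**
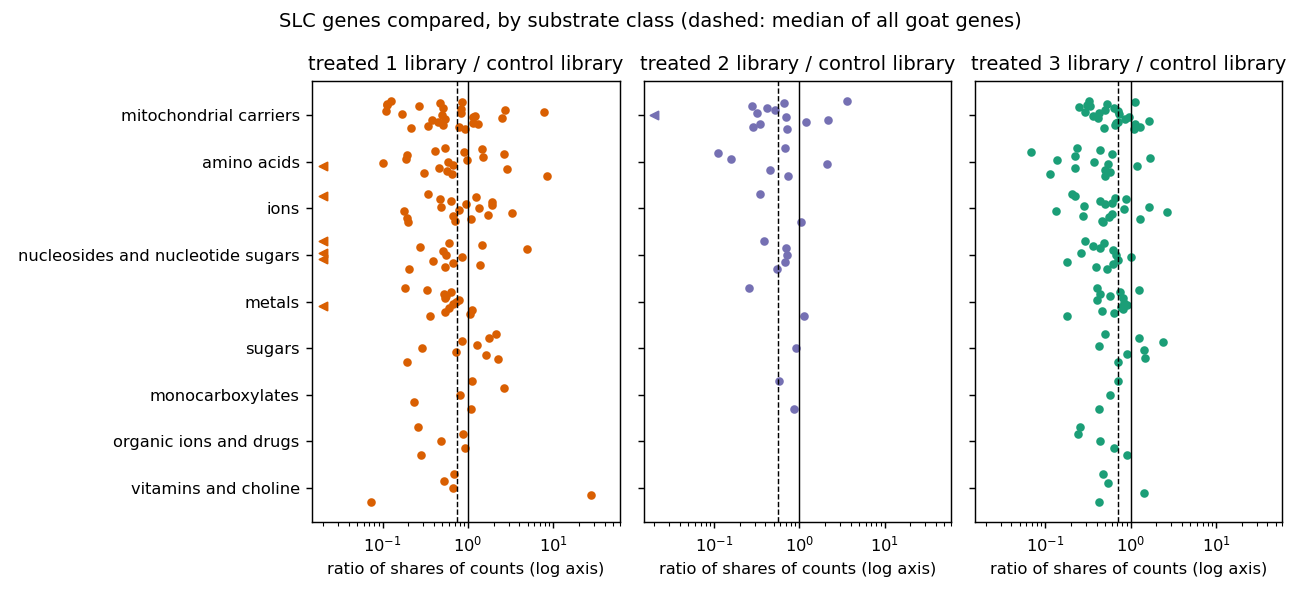
Ratio of shares of counts of the SLC genes compared in the substrate classes shown, treated library over control, on a log axis, for the 3 treated libraries. Lipid and acetyl-CoA transporters, those of other substrates and names that only extend an SLC symbol are not drawn. Points are genes, triangles at the left edge are genes with 0 counts in the treated library, the solid line is a ratio of 1 and the dashed line is the median of all goat genes (0.741, 0.562 and 0.709), and most points lie to the left of 1.

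Assembled sequences of close relatives were printed for the ADP/ATP carriers because the counts of SLC25A4 and SLC25A5 rest on how reads and names were divided among them. The stretch of 120 bases below, from the coding strand and 5′ to 3′, is shared by 3 unigenes. Capitals mark bases that differ from the first sequence, which is the main SLC25A4 unigene. The second is the SLC25A5 unigene by both protein and nucleotide match, and the third was paired with SLC25A5 at 92% identity while its nucleotide match named SLC25A6, the ubiquitous relative.
c4360_g1: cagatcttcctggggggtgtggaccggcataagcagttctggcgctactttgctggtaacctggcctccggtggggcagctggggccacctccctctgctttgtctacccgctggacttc
c18070_g1: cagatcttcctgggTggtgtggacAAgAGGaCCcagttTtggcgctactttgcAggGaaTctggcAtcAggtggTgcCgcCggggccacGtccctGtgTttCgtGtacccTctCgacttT
c9897_g2: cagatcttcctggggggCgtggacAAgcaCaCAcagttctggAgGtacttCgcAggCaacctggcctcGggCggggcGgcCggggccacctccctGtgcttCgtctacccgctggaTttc
In this stretch 25 bases of the second and 18 of the third differ from the first. Over the aligned coding sequence, 75.7% of 602 bases of the second and 79.0% of 606 bases of the third were identical to the SLC25A4 unigene.

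SLC25A4 had 18419 counts in the control and 6091, 171 and 5150 in T1, T2 and T3, of which its main unigene held 18274, 6052, 162 and 5112. The level was 1385 counts per kb and per 1000000 named counts in the control, and 698, 585 and 874 in T1 to T3, higher than that of any other SLC gene in all 4. Its ratios to the control were 0.504 (0.490 to 0.519), 0.422 (0.361 to 0.491) and 0.631 (0.612 to 0.651), and only T2 passed the limit of 0.5. Relative to the median of all goat genes the ratios were 0.680, 0.752 and 0.890. SLC25A5 had 492 counts in the control and 271, 39 and 242 in T1 to T3, with ratios of 0.840, 3.61 (2.53 to 5.0) and 1.11, but nearly all of them came from the unigene that matches SLC25A6, with 485, 234, 39 and 236 counts. The unigene that matches SLC25A5 itself had 7, 36, 0 and 6. The higher value of T2 is therefore that of the SLC25A6-like sequence.

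Among the carriers that feed oxidative phosphorylation, the phosphate carrier SLC25A3 was second by mean level over the 4 libraries, at 164, 81.6, 113 and 157 counts per kb and per 1000000 in the control and T1, T2 and T3. Its counts of 3830, 1250, 58 and 1624 gave ratios of 0.498 (0.467 to 0.531), 0.689 and 0.957. The oxoglutarate/malate carrier SLC25A11 had 1387, 712, 22 and 798 counts, with ratios of 0.783, 0.721 and 1.30 (1.19 to 1.42), none past the limits. The calcium-regulated aspartate/glutamate carrier SLC25A12, which works with SLC25A11 in the malate-aspartate shuttle, had 794 counts in the control and 178, 5 and 231 in T1 to T3. It was called lower in T1 and T2, at 0.342 and 0.286, and stood at 0.656 in T3. The carnitine/acylcarnitine carrier SLC25A20, which brings fatty acids in for oxidation, followed the same pattern with 780, 196, 6 and 234 counts and ratios of 0.383, 0.350 and 0.677. The lowest value of each of these lay in T1 or T2, and T3 lay above both. Relative to the median of all goat genes, SLC25A3 stood at 0.671, 1.23 and 1.35, SLC25A11 at 1.06, 1.28 and 1.83, SLC25A12 at 0.461, 0.510 and 0.926, and SLC25A20 at 0.517, 0.623 and 0.955, so that SLC25A3 turned direction in T2 and T3 and SLC25A11 in T1 and T2 with the scaling.

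Carriers of other kinds were further from the control. SLC25A34, whose substrate in muscle is not settled, had 1704 counts in the control and 122, 12 and 219 in T1 to T3. Its ratios were 0.109 (0.0901 to 0.131), 0.320 (0.165 to 0.561) and 0.290 (0.251 to 0.334), so that the control value was the highest of the 4. SLC25A30, a carrier of the same large family, had 417, 46, 0 and 67 counts, with ratios of 0.168 and 0.362 in T1 and T3, and was at least 3.06-fold lower in T2, taking 3 counts for the 0. SLC25A42, which carries coenzyme A, had 326, 57, 2 and 36 counts, and SLC25A44, which carries branched-chain amino acids, had 81, 6, 0 and 11. Both were called lower in T1 and T3. Of the 27 SLC25 genes compared in T1, 12 were called lower and 3 higher, in T3 it was 8 and 0 of 24, and in T2 it was 5 and 2 of 13. The shares lower were 44.4, 38.5 and 33.3% in T1, T2 and T3, against 28.3, 35.2 and 26.1% of all goat genes, and the shares higher were 11.1, 15.4 and 0% against 10.4, 9.67 and 5.61%. The second member called higher in T2, beside SLC25A5, was the mitochondrial iron importer SLC25A28, from 233 counts in the control and 11 in T2, at a ratio of 2.15 (1.06 to 3.91).

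The 3 SLC25 genes called higher in T1 were SLC25A33, SLC25A36 and SLC25A25. SLC25A33 and SLC25A36 both carry pyrimidine nucleotides into mitochondria. SLC25A33 had 85 counts in the control, 439 in T1, 3 in T2 and 16 in T3, which gave a ratio of 7.88 (6.23 to 10.1) in T1 and 0.425 (0.232 to 0.730) in T3. It was thus called higher in one treated library and lower in another. SLC25A36 had 221, 394, 3 and 69 counts and ratios of 2.72 (2.30 to 3.22) in T1 and 0.704 in T3. In T2 it had too few pooled counts to be compared, and its 3 counts gave 0.617. The calcium-dependent ATP-Mg/phosphate carrier SLC25A25 had 173, 282, 1 and 127 counts, at 2.49 (2.05 to 3.02) in T1 and 1.66 (1.31 to 2.09) in T3. T1 was the highest of the 4 for all of these.

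**Figure D3:**
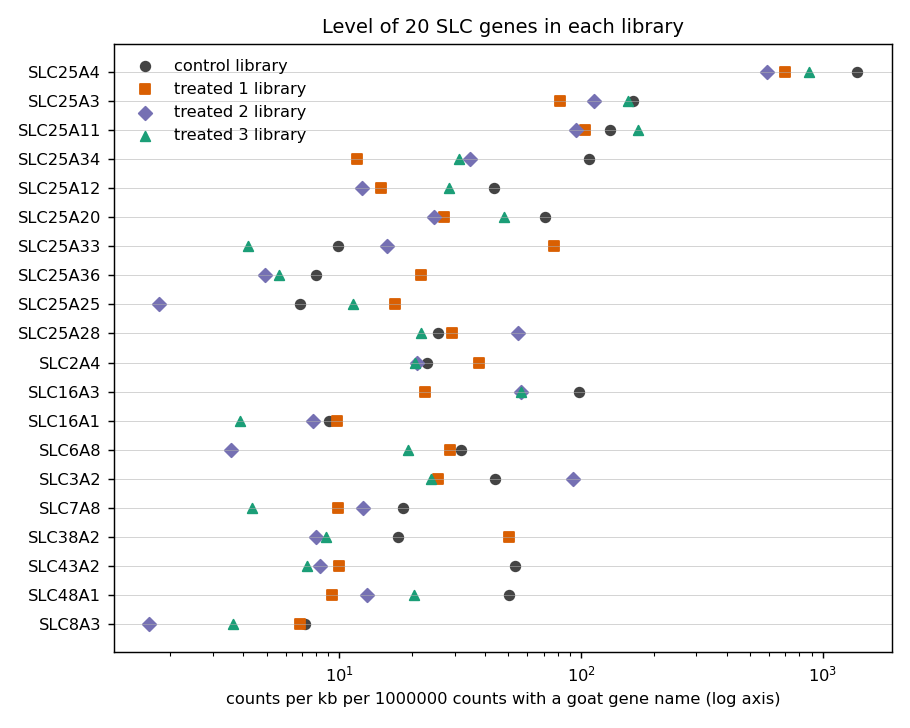
Level of 20 SLC genes, in counts per kb of unigene and per 1000000 counts with a goat gene name, on a log axis, with 1 point per library. SLC25A4 is the highest gene in every library, T1 stands above the other libraries for SLC25A33, SLC25A36, SLC25A25, SLC2A4 and SLC38A2, and the control stands apart on the right for SLC43A2, SLC48A1 and SLC25A34.

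Outside SLC25, the families of amino acid transporters, with peptide and creatine carriers among them, held the largest summed counts in the control, 3964 over 28 genes, and 2077, 65 and 671 in T1 to T3. The ratios of this sum were 0.799 (0.757 to 0.843), 0.746 (0.574 to 0.953) and 0.382 (0.351 to 0.415), and relative to the median of all goat genes 1.08, 1.33 and 0.539. These ratios depend strongly on SLC43A2, which held 1449 of the counts in the control and 179, 5 and 89 in T1 to T3. In T1 the sum also rests on SLC38A2, with 939 of the 2077 counts there and 495 in the control. The sum without either gene was not calculated, so no direction of the class is read from these summed ratios. In T3, 9 of the 15 members compared were called lower and 0 higher, with a median of 0.435. In T1 it was 6 lower and 2 higher of 19, with a median of 0.581. Of all goat genes, 26.1% were lower in T3, against 60% of these members, and 28.3% in T1, against 31.6%. The shares higher were 10.5 and 0% of these members in T1 and T3, against 10.4 and 5.61% of all goat genes. In T2, 2 of 6 compared were lower and 1 higher, or 33.3 and 16.7%, against 35.2 and 9.67%.

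SLC43A2, a carrier of branched-chain and other large neutral amino acids also known as LAT4, was lower in every treated library. It had 1449 counts in the control and 179, 5 and 89 in T1, T2 and T3. The ratios were 0.188 (0.160 to 0.220), 0.157 (0.0509 to 0.367) and 0.139 (0.111 to 0.172), and relative to the median of all goat genes 0.254, 0.280 and 0.195. SLC7A8, the LAT2 subunit for neutral amino acids, had 334, 118, 5 and 35 counts and was called lower in T3 only, at 0.236 (0.162 to 0.335), with 0.539 in T1. Its partner SLC3A2, the heavy chain that brings several light chains to the cell surface, had 541, 206, 25 and 130 counts, at 0.581 and 0.542 in T1 and T3 and 2.10 (1.35 to 3.14) in T2. SLC7A5, the LAT1 light chain, was hardly measured in any library, with 2, 1, 1 and 1 counts. The sodium-coupled glutamine and alanine transporter SLC38A2 went the other way in T1, with 495 counts in the control, 939 in T1, 5 in T2 and 111 in T3. Its ratios were 2.89 (2.59 to 3.23), 0.459 (0.149 to 1.08) and 0.506 (0.408 to 0.623), so that T1 lay above all the others.

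Sugar transporters were the only class of 10 or more genes whose summed share lay above the control in T1, T2 and T3. The 10 genes had 886 counts in the control and 892, 23 and 442 in T1 to T3, with ratios of 1.54 (1.40 to 1.69), 1.18 (0.745 to 1.78) and 1.13 (1.002 to 1.26), so that T2 was within counting error of the control. Relative to the median of all goat genes these were 2.07, 2.10 and 1.59. In T3 the direction rested on 1 member, since the ratio without SLC37A4 was 0.876 (0.762 to 1.006) there, or 1.24 relative to the median, while it was 1.58 in T1 and 1.17 in T2. In T1, 2 of the 9 compared were called higher and 2 lower, 22.2% each, with a background of 10.4 and 28.3%. The insulin-responsive glucose transporter SLC2A4 (GLUT4) had 550 counts in the control and 592, 11 and 219 in T1 to T3, at 1.64 (1.46 to 1.85), 0.910 (0.451 to 1.64) and 0.898 (0.765 to 1.05), none past the limits. SLC2A3, a glucose transporter of high affinity, was called higher in T1, from 34 counts in the control and 50 there, at 2.24 (1.42 to 3.58). The other member called higher was SLC5A6, which belongs to the sodium/glucose cotransporter family by name but carries vitamins such as biotin, with 67, 93, 2 and 15 counts. SLC37A4, which moves glucose 6-phosphate into the endoplasmic reticulum, had 147, 124, 4 and 155 counts and was called higher in T3 at 2.38 (1.89 to 3.00).

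The 9 monocarboxylate transporters of the SLC16 family had a summed ratio of 0.430 (0.391 to 0.471), 0.647 (0.432 to 0.932) and 0.561 (0.508 to 0.619), which SLC16A3 dominated, and of 0.579, 1.15 and 0.792 relative to the median of all goat genes. SLC16A3 (MCT4), the lactate exporter of fast fibres, had 1511 counts in the control and 229, 19 and 385 in T1 to T3. Its ratios were 0.231 (0.200 to 0.266), 0.572 (0.343 to 0.896) and 0.575 (0.513 to 0.643), and T1 was the lowest. SLC16A1 (MCT1), which takes lactate up, had 317, 225, 6 and 60 counts, at 1.08 (0.908 to 1.29), 0.861 (0.314 to 1.89) and 0.427 (0.318 to 0.564), and T3 was the lowest. The creatine transporter SLC6A8 had 404, 240, 1 and 108 counts, at 0.906 (0.769 to 1.07) in T1, 0.603 (0.483 to 0.748) in T3, and 0.113 (0.00284 to 0.631) in T2, where it rests on 1 count. The carnitine transporter SLC22A5 had 35, 6, 0 and 4 counts and was called lower in T1 and T3, at 0.261 and 0.258.

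Ion transporters had summed ratios of 0.727 (0.670 to 0.788), 0.829 (0.573 to 1.16) and 0.445 (0.397 to 0.498), or 0.981, 1.48 and 0.628 relative to the median of all goat genes. Of the 1865 counts of this sum in the control, 788 were those of SLC20A1. Of these, 691 came from a unigene whose nucleotide match named SLC20A2. In T1, 6 of 19 compared were called lower and 1 higher, and in T3 it was 5 and 1 of 18. The shares lower, 31.6 and 27.8%, were near the 28.3 and 26.1% of all goat genes. Those higher were 5.26 and 5.56%, against 10.4 and 5.61%. The one higher in both was SLC26A10, of an anion exchanger family, with 30 counts in the control and 65, 9 and 35 in T1 to T3. Its ratios were 3.30 (2.11 to 5.28) and 2.63 (1.57 to 4.44) in T1 and T3. In T2 the gene had too few pooled counts to be compared, and the ratio was 13.6 (5.70 to 29.5). The sodium/proton exchanger SLC9A8 had 174, 39, 0 and 16 counts, at 0.342 and 0.207 in T1 and T3. The sodium/calcium exchanger SLC8A3, the muscle NCX3, had 201, 125, 1 and 45 counts, with ratios of 0.948 (0.752 to 1.19) and 0.505 (0.357 to 0.701) in T1 and T3.

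SLC20A1, a sodium-dependent phosphate importer, showed how a pairing can decide a value. It was called lower in T2 and T3, at 0.346 and 0.275 (0.220 to 0.340), and had 788, 346, 6 and 96 counts. These came from 2 unigenes that moved in opposite directions in T1 and T3. The first, with 97, 229, 2 and 65 counts, matched the SLC20A1 protein at 100% identity. The second, with 691, 117, 4 and 31 counts, matched it at 57% identity, and its nucleotide match named SLC20A2, a close relative. With unigenes of 70% identity or more, which leaves the first alone, the ratios were 3.64 (2.86 to 4.67), 0.966 (0.115 to 3.58) and 1.52 (1.09 to 2.11). The gene then turned from 0.670 to a higher call in T1 and lost its lower calls in T2 and T3. A stretch of 120 aligned coding bases of both is given below, 5′ to 3′, because the value rests on which of them is meant. Capitals mark the 43 bases of the second that differ from the first.
c13359_g1: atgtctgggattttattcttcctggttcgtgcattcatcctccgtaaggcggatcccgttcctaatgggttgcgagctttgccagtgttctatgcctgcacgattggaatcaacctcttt
c13305_g1: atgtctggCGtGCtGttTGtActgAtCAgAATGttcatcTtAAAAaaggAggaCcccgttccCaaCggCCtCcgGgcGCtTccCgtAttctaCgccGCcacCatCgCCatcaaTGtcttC
Over 1414 aligned coding bases the sequences were 69.1% identical. The fatty acid transport protein SLC27A4 was a like case, since 326, 120, 2 and 132 of its 330, 132, 4 and 138 counts came from a unigene at 59% identity that matched SLC27A1. Of the 335 SLC unigenes, 283 matched their goat protein at 95% identity or more, 14 at less than 70%, and 18 had a nucleotide match that named another gene.

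Metal transporters had summed ratios of 0.466 (0.421 to 0.515), 0.948 (0.658 to 1.32) and 0.547 (0.490 to 0.610), or 0.629, 1.69 and 0.771 relative to the same median, with 4 of 15 and 4 of 14 called lower and 0 higher in T1 and T3. The shares lower, 26.7 and 28.6%, were near the background of 28.3 and 26.1%. For higher calls the background was 10.4 and 5.61%. SLC48A1, which moves heme out of lysosomes and endosomes, had 530 counts in the control and 64, 3 and 95 in T1 to T3. It was called lower in all 3, at 0.184 (0.140 to 0.239), 0.257 (0.0529 to 0.757) and 0.404 (0.322 to 0.504). SLC11A2 (DMT1), the divalent metal transporter, had 162, 38, 2 and 13 counts, at 0.358 and 0.181 in T1 and T3. The iron exporter SLC40A1, ferroportin, had 133, 46, 1 and 26, at 0.527 and 0.441. The magnesium transporter SLC41A1, with 282, 118, 7 and 94 counts, was past no limit, at 0.638, 1.13 and 0.752.

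The class of nucleosides and nucleotide sugars numbered 23 genes, 21 of them of the SLC35 family. Part of that family supplies the Golgi with nucleotide sugars for glycosylation. The class was set by family number, not by the substrate of each member. In T1, 6 of 15 compared were called lower and 1 higher, and in T3 it was 7 and 0 of 13. The shares lower were 40 and 53.8%, with 28.3 and 26.1% over all goat genes. Those higher were 6.67 and 0%, with 10.4 and 5.61% over all goat genes. In T2, 0 of 5 compared were called lower or higher, with 35.2 and 9.67% over all goat genes. The summed ratios were 0.547 (0.504 to 0.593), 0.628 (0.426 to 0.894) and 0.577 (0.525 to 0.632). Relative to the median of all goat genes they were 0.737, 1.12 and 0.813. The fucose donor transporter SLC35C1 had 26, 0, 0 and 3 counts, and was at least 5.68-fold lower in T1, taking 3 counts for the 0. SLC29A1 (ENT1), the equilibrative nucleoside transporter, had 249, 33, 3 and 59 counts, at 0.202 (0.136 to 0.291), 0.548 (0.112 to 1.62) and 0.535 (0.395 to 0.713). Vitamin transporters included the largest ratio of all, that of the thiamine transporter SLC19A2 in T1, at 27.4 with an interval of 4.33 to 1144, from 1 count in the control and 18, 0 and 0 in T1 to T3.

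Members called the same way in all 3 treated libraries numbered 4 of the 32 that could be compared in all, and these were lower. They were SLC43A2, SLC25A34, SLC48A1 and SLC25A30, against a background of 12% of all goat genes called lower in all 3. None of the 32 was called higher in all 3, against 1.47% of all goat genes. The filter for T2 needs many counts in the control, so that members higher in T2 were seldom among the 32. SLC26A10, with 30 counts in the control and 9 in T2, was left out by it. In T1 and T3 together, 20 of 109 were lower in both and 1, SLC26A10, was higher in both, with a background of 16.8 and 3.3%. These comparisons share the control and are not independent of each other. Relative to the median of all goat genes, SLC43A2 was the only member called lower in all 3.

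A test of treated against control that takes the 3 treated libraries as replicates was made with the edgeR quasi-likelihood method. It has 2 residual degrees of freedom and assumes that the lone control library varies as the treated ones do. Of 118 SLC genes tested, 1 was lower and 0 higher at an adjusted p below 0.05, with 0.624% of all goat genes tested called lower and 0.0706% higher. The one was SLC43A2, with a log2 difference of -2.62 and an edgeR adjusted p of 0.0465. With TMM scaling the edgeR adjusted p of no SLC gene was below 0.126, without T1 it was 0.178 at the lowest and without T3 it was 0.217, and DESeq2 called 0, with 2 lower and 2 higher at an unadjusted p below 0.05. Over the alternatives the lowest edgeR or DESeq2 adjusted p of an SLC gene lay between 0.0155 and 0.639. The number of members called lower by edgeR rose without T2, and so did that of all goat genes. At an unadjusted p below 0.05, 14 members were lower and 2 higher by edgeR, namely SLC26A10 and SLC9A3R2, with a background of 10.4 and 3.21%. An exact permutation test of a single value with 1 control library against 3 cannot give a p below 0.25. With 1 control library, an effect of the drug cannot be told apart from differences in day, animal or preparation.

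Differences were found among the treated libraries too. Between T1 and T3, which do not need the control, 100 SLC genes were compared, and 9 were called higher and 18 lower in T3, with a background of 7.89 and 12.3%. Among those with a count in both, SLC25A33 was lowest, at 0.0539 (0.0305 to 0.0886) from 439 and 16 counts, followed by SLC18B1, a vesicular amine transporter relative, at 0.0592 from 25 and 1 counts. SLC38A2 stood at 0.175 (0.142 to 0.213), SLC25A36 at 0.259 (0.198 to 0.335) and SLC16A1 at 0.395 (0.292 to 0.527). On the higher side were the magnesium transporter relative SLC41A3 at 3.78 (1.69 to 9.28), SLC25A34 at 2.66 (2.12 to 3.34), SLC29A1 at 2.65 (1.70 to 4.18), SLC16A3 at 2.49 (2.11 to 2.94) and SLC48A1 at 2.20 (1.58 to 3.06). The SLC25 genes had a median ratio of 1.28 over 22 compared, the SLC transporters outside SLC25 had 0.748 over 74, and all goat genes had 0.986. Among amino acid transporters 5 of 13 were called lower in T3 and 0 higher.

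**Figure D4:**
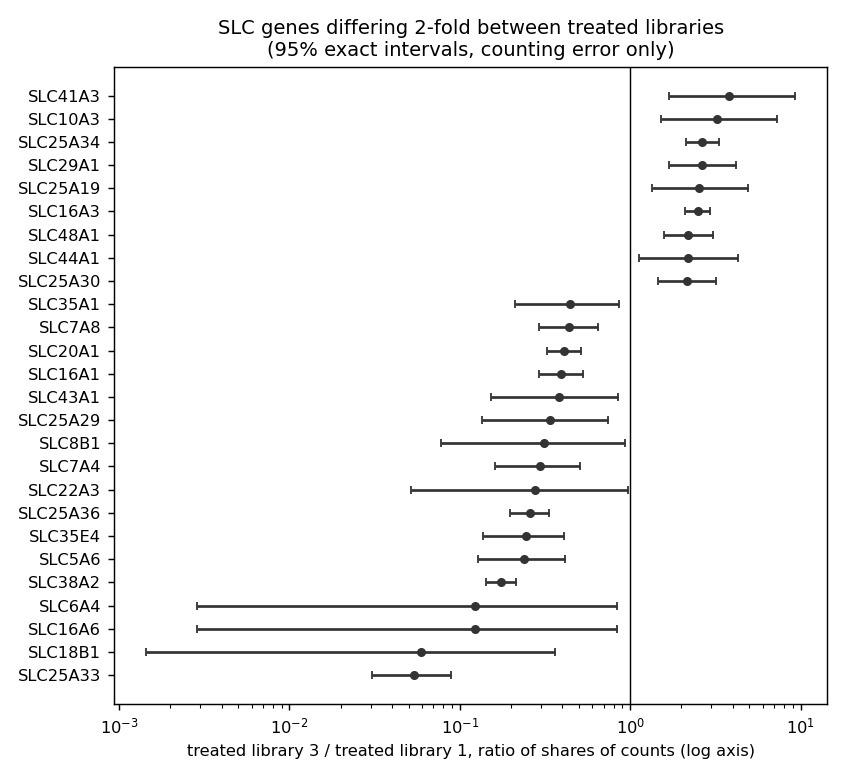
Ratio of shares of counts in T3 over T1, on a log axis, for the SLC genes called higher or lower between them that had a count in both, with 95% exact intervals for counting error. SLC25A33 is at the low end, at 0.0539, and SLC41A3 at the high end, at 3.78.

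T2 could be read for few members. Of the 182 genes, 85 had no count there and 1 count equals 7.47 CPM. A gene with few counts in the control had too few pooled counts to be compared even where it was high in T2, and 5 such members with 3 or more counts there had an interval above 1. They were SLC26A10, SLC9A3R2 with 28 counts against 175 in the control at 7.28 (4.70 to 10.9), the amino acid transporter family member SLC43A3 with 11 against 82 at 6.10, the citrate carrier SLC25A1 with 10 against 143 at 3.18, and the zinc transporter SLC39A7 with 7 against 103 at 3.09. SLC39A7 and SLC43A3 were chosen after their values were seen. The 5 are listed because they were high in T2. Without the filter, 10 of 178 SLC genes were called higher in T2, beside 8.56% of 10905 goat genes. In the same library the fibroblast marker sum was 1928 CPM against 62.1 in the control and the adipocyte sum was 1121 against 51.4, and their part in these values was not tested.

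Beside the members, a list of 39 transporters known from muscle was followed, of which 32 were present. In T1, 28 were compared, 4 were called higher and 6 lower. In T2 it was 3 and 4 of 18, and in T3 it was 0 and 5 of 28. The shares lower were 21.4, 22.2 and 17.9% in T1, T2 and T3, beside 28.3, 35.2 and 26.1% of all goat genes, and the shares higher were 14.3, 16.7 and 0%, beside 10.4, 9.67 and 5.61%. Transport proteins without an SLC symbol, from mitochondrial, surface and sarcoplasmic reticulum membranes, were listed for comparison, with 15 of 16 present. Of these, 2 were higher and 5 lower of 14 in T1, 0 and 5 of 11 in T2, and 0 and 5 of 14 in T3, which is 35.7, 45.5 and 35.7% lower. The calcium pump ATP2A2 of slow fibres had 18939, 3387, 26 and 1229 counts and ratios of 0.273, 0.0624 and 0.146. The mitochondrial uncoupling protein UCP3 belongs to the SLC25 family but was not a member here, because its symbol is not an SLC symbol. It had 2274, 203, 9 and 739 counts, at 0.136, 0.180 and 0.733.

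Length moved with the ratios. Over all goat genes the median ratio fell from 1.31 for genes with less than 1 kb of unigene to 0.592 for those over 5 kb in T1, from 1.40 to 0.386 in T2 and from 1.32 to 0.517 in T3. SLC genes compared had a median length of 2.10 kb in T1, 2.62 in T2 and 2.19 in T3, against 2.09, 2.66 and 2.18 for all goat genes compared. In the class of 1 to 2 kb the SLC median was 0.720 in T1 and 0.570 in T3, against 0.791 and 0.826 for all goat genes, and in the class of 3 to 5 kb it was 0.589 and 0.609 against 0.619 and 0.576. What the lengths contribute to single members was not tested.

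**Figure D5:**
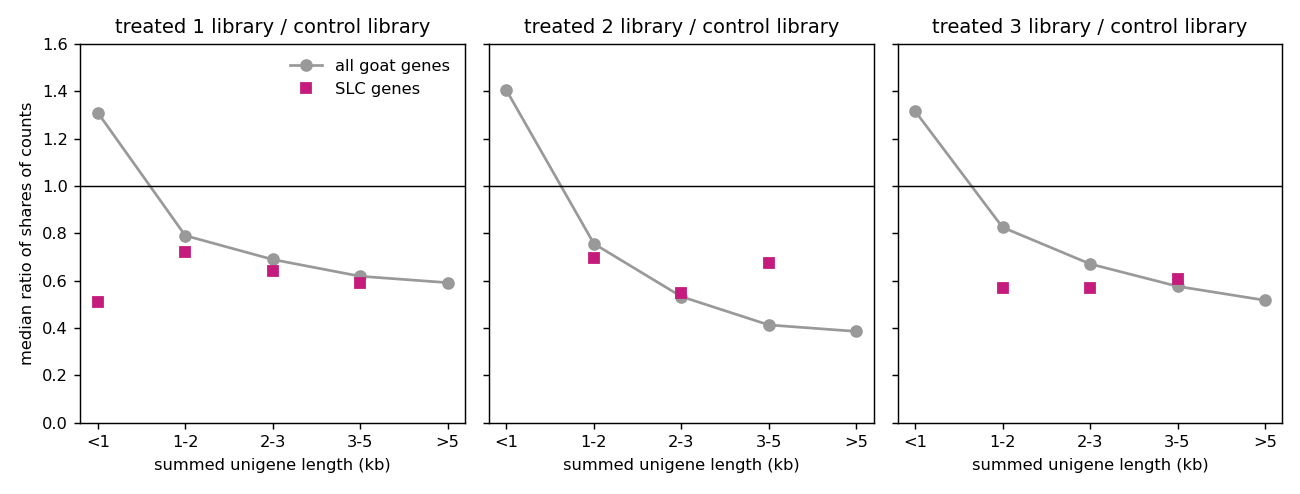
Median ratio of shares of counts, treated library over control, by summed unigene length in kb, for all goat genes (circles) and SLC genes (squares, shown where at least 5 were compared). The median of all goat genes declines with length in the 3 treated libraries, from 1.31 to 0.592 in T1, and the SLC genes of 1 to 2 kb lie below it in each.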

How the data were processed

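RNA-seq of longissimus muscle was analysed for 1 control library and 3 treated libraries. The authors sequenced the libraries with Illumina chemistry and assembled 59774 unigenes. The assembler and counting tool are not given in the sources used here, and FastQC 0.10.1 is named in the submitters' processing notes. The deposited expected counts per unigene, which the authors made and which are whole numbers, were used as they are, and the deposited TPM and FPKM were not used. A deposited table pairs 21220 unigenes with goat genes, with a percent identity. As the goat annotation behind it is not named, no chromosome positions are given.

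Counts were summed per goat gene name. The 25 paired unigenes without a gene name, which are mitochondrially encoded and held 23.8, 42.8, 97.9 and 55.2% of the goat-paired counts of the control library and treated libraries 1, 2 and 3, were left out of the totals, so the rule's total of all goat-paired counts was kept as an alternative. All counts per library were 8533046, 7962590, 7339521 and 6675218. SLC genes were grouped by family number and main substrate. Levels are counts per kb of summed unigene length and per 1000000 named counts. Ratios of shares were calculated with exact intervals, and shares with Wilson intervals. edgeR 4.0.16 was run with the named totals as library sizes and Benjamini-Hochberg adjustment over all goat genes tested, and DESeq2 1.42.0 as an alternative (R 4.3.3, Python 3.11.15, scipy 1.17.1). The steps were tested on simulated data. Whether the libraries are from separate animals is not stated, so spread between them may be technical.

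Members and lists were chosen with earlier results of these data known. The genes named are those of the muscle list, the 5 SLC25 and 5 other members of highest mean level, the members furthest from the control library by the bound nearest to 1 in each treated library (6 each way in libraries 1 and 3, 4 in library 2), those called the same way in all 3, and the 5 highest and lowest between treated libraries 1 and 3. Other members complete a small group and were chosen after their values were seen. Sequences are the authors' unigenes, read over their longest open reading frame.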

Additional observations from a re-analysis of the deposited data

How the results depend on the processing

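No paired analysis was possible because the single control library shares a number with only 1 treated library. Depth limits T2 most, since 1 count there is 7.47 CPM. The following alternatives were chosen after seeing the data, the total with unigenes without a gene name, the length-class scaling, a filter on the mean share and sugar transporters left out in turn.

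The share of SLC genes in the control and T1, T2 and T3 was 0.558, 0.251, 0.0100 and 0.213% with the total that includes unigenes without a gene name, and that of SLC25 genes 0.380, 0.155, 0.00575 and 0.155%. With full SLC symbols only, the SLC share was 0.724% in the control, 0.426% in T1 and 0.467% in T3. With unigenes of 70% identity or more it was 0.447 and 0.484% in T1 and T3, and the SLC25 share was 0.512, 0.282 and 0.357% in the control and T1 and T3. Leaving out genes of the mitochondrial genome changed nothing, since the named genes hold none of them.

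Numbers of called members moved by over 1.5 times as follows. With the median ratio set to 1, 19 were higher in T1, 9 higher and 12 lower in T3, 2 lower in T2 and 1 lower in all 3. Of all goat genes, 17.7% were then higher in T1, 13.3% higher and 12.1% lower in T3, and 11.8% lower in T2. With the length-class scaling, 19, 6 and 8 were higher in T1, T2 and T3, 2 and 14 lower in T2 and T3, and 1 lower in all 3. With the study's limits of 3 and 0.6, 5, 1 and 0 were higher, and 2 between T3 and T1. The shares over all goat genes were 5.33, 4.76 and 2.24%, and 2.91% between T3 and T1. Without a filter on low counts, 10 were higher in T2 and 1 in all 3, and with the filter on the mean share 6 were higher in T2. Of all goat genes, 8.56% were higher in T2 without a filter and 19.8% with the filter on the mean share. With the total that includes unigenes without a gene name, 65, 118 and 86 were lower in T1, T2 and T3, and 0 higher in T2 and T3. Between T3 and T1, 4 were higher and 29 lower, and 53 were lower in all 3. This total lowered most goat genes, with 42.3, 98.6 and 58.4% lower in T1, T2 and T3. The shares higher over all goat genes were 0.0824 and 1.37% in T2 and T3. Between T3 and T1 they were 3.57% higher and 20.8% lower. Without 1 treated library, 0 to 1 members were higher and 5 to 20 lower in both of the others, with the highest numbers without T2. The edgeR number of lower members was 1, and 0 with TMM, 3 without a filter, 0 with DESeq2, and between 0 and 2 without 1 treated library, with 0 when T1 or T3 was left out.

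Among called values, members turned direction in 4 cases, SLC20A1 in T3 at 1.52 with unigenes of 70% identity or more, and in T2 SLC25A28 at 0.0597, SLC25A5 at 0.1002 and SLC3A2 at 0.0584 with the total that includes unigenes without a gene name. Members that were not called turned too. With the median ratio set to 1, 17 of 128, 11 of 32 and 15 of 109 compared turned in T1, T2 and T3, with the length-class scaling 20, 12 and 18, and with unigenes of 70% identity or more 2, 1 and 1, SLC20A1 in T1 among them. The cause of the moves was not tested, except that a larger total or a filter changes them by construction. Of 67 called values of the genes named by rule, 64 kept their call with unigenes of 70% identity or more, 51 with the median ratio set to 1, 50 with the length-class scaling and 56 with the total that includes unigenes without a gene name.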
